A study of Mus musculus with 12 samples.

Results

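The genes of potassium channels and of the proteins that assemble with them were examined for peaks of H3K9me2 and H3K9me3 at their promoters in mouse adipose tissue. The set held 90 protein-coding autosomal genes with a symbol that begins with Kcn, of 21281 protein-coding autosomal genes in the mm9 annotation. The rule uses the symbol and no measured value, although the family was taken up with earlier results of these data known, and 2 further genes with this prefix were not analysed here. Wild-type C57BL/6J mice received chow (SCD, the control diet of the labels) or a high-fat diet (HFD) from 6 weeks of age, and brown adipose tissue (BAT) and subcutaneous white adipose tissue (WAT) were taken after 12 weeks. The study asked how the diet changes these histone marks at genes, by chromatin immunoprecipitation and sequencing (ChIP-seq) of 12 libraries. There were 8 libraries with a deposited list of peaks, 1 for each diet, tissue and mark, and 4 inputs that were not analysed here. Sex and the number of mice pooled in a library are not given in the sources used here, and all groups shared the strain, the age at the start of the diet and the cross-linking with formaldehyde.

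Potassium channels let potassium ions leave the cell and so bring the membrane back to its resting voltage after excitation. Voltage-gated channels open on depolarization, inward rectifiers hold the resting potential, two-pore domain channels carry background (leak) current, and a further class opens with intracellular Ca2+ or Na+. Most members are known from neurons, heart and skeletal muscle, whereas a few have been studied in fat, such as Kcnk3, an acid-sensitive leak channel of brown adipocytes, and Kcnma1, the large-conductance Ca2+-activated channel. H3K9me2 and H3K9me3 are methylation states of lysine 9 of histone H3 that are commonly found on repressed chromatin, so genes that a tissue does not use can carry them.

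A member was counted in a list when a peak with a score of 50 or more lay within 3 kb of any of its annotated starts, 228 starts in all. The score is the authors' value for a peak, taken as the negative log10 of its p-value multiplied by 10, so that 50 stands for a p of 1e-05. It grows with depth and with the width of a region and was not scaled between libraries, so a score ranks peaks within a list and is no strength of methylation between lists. With 1 library per diet, tissue and mark there were no replicates, no difference between lists could be tested, and all values below are descriptions. The methods of the study pair each mark with an antibody described for the other mark, so the marks are named as the labels name them. The lists hold no RNA level and come from bulk tissue, so the tissue could not be checked against marker genes, and fewer cells with a mark cannot be told apart from less of the mark per cell.

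The stretches ahead of 4 members show starts with many, some and no peaks, and they are referred to below. The start without a peak belongs to Kcnma1, whose RefSeq start, 200901 bp away, had peaks, so it is no example of a gene without peaks. Each is the 200 bases upstream of a start in mm9, printed 5′ to 3′ on the strand of the gene, with every CpG in capitals because the members with peaks differed from those without in CpG content. None overlaps an annotated exon. Kcnc4 (chr3:107261817-107262016, minus strand) encodes a rapidly gated voltage-gated subunit, and its stretch held 12 CpG and lay under peaks of 7 lists. Kcnh5 (chr12:76278320-76278519, minus strand), an ether-a-go-go type channel of brain, held 13 CpG and lay under peaks of all 8 lists. Kcnj10 (chr1:174271141-174271340, plus strand), the inward rectifier of glia, held 12 CpG and lay under peaks of 3 lists. The annotated start of Kcnma1 (chr14:24622527-24622726, minus strand) had 0 CpG and no peak, while the stretch ahead of its RefSeq start (chr14:24823428-24823627, minus strand) had 23 CpG and lay under peaks of 7 lists.
Kcnc4: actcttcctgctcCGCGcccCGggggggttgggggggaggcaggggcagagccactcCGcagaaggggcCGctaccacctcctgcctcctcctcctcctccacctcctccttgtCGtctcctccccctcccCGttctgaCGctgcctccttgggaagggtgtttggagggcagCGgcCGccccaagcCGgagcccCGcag
Kcnh5: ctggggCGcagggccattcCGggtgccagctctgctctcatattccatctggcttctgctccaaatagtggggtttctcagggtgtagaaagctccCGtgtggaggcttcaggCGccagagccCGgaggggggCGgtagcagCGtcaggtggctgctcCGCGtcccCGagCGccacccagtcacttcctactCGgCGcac
Kcnj10: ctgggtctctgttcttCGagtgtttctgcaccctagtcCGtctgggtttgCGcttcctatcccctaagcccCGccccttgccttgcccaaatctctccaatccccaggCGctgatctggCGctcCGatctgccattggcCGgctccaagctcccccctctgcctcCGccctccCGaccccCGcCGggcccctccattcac
Kcnma1, annotated start: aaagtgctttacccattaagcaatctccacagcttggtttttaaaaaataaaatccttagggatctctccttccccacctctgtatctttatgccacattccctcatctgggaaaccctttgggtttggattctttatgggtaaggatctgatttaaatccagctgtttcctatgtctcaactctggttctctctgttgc
Kcnma1, RefSeq start: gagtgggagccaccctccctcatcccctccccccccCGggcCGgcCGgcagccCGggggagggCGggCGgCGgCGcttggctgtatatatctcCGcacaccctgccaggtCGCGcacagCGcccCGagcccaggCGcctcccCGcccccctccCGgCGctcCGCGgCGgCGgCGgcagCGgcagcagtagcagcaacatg

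Potassium channel promoters carried peaks of both marks in BAT and WAT in every list, and their share was above that of all genes in each of the 8 lists. In BAT H3K9me2, 62 of 90 members had a peak in SCD-fed mice (68.9%, exact 95% CI 58.3% to 78.2%, against 44.3% of all genes). In HFD-fed mice 70 did (77.8%, 67.8% to 85.9%, against 47.6%). For BAT H3K9me3 the counts were 60 (66.7%, 55.9% to 76.3%, against 53.4% of all genes) with SCD and 69 (76.7%, 66.6% to 84.9%, against 60.7%) with HFD. The BAT lists thus held more members with HFD than with SCD for both marks at the limit of 50. For BAT H3K9me2 this order turned with equal numbers of peaks, at 62 members with SCD and 57 with HFD, and at a score of at least 80, at 49 and 48.

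In WAT the marks went opposite ways between the diets. For H3K9me2, 59 members (65.6%, 54.8% to 75.3%, against 43.6% of all genes) had a peak with SCD and 51 (56.7%, 45.8% to 67.1%, against 40.6%) with HFD. For H3K9me3, 14 members (15.6%, 8.77% to 24.7%, against 7.17% of all genes) had a peak with SCD and 61 (67.8%, 57.1% to 77.2%, against 37.3%) with HFD. The intervals are Clopper-Pearson intervals that cover counting error alone and take genes as independent. In 3 of the 4 pairs the list with more members also held more peaks of 50 or more, with 24887 and 43173 for BAT H3K9me2, 26835 and 52758 for BAT H3K9me3 and 8350 and 29190 for WAT H3K9me3 (SCD, then HFD). For WAT H3K9me2 the sizes were 21746 and 21976. The depth behind the lists is unknown, and its part in these counts was not tested.

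**Figure D1:**
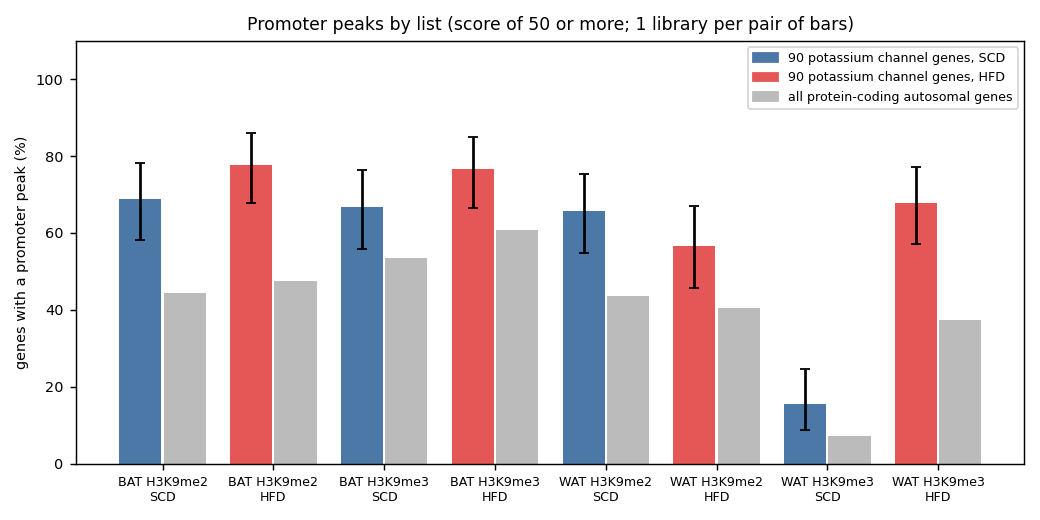
Share of the 90 potassium channel genes (blue for SCD, red for HFD) and of all 21281 protein-coding autosomal genes (gray) with a promoter peak in each of the 8 lists, in percent, where error bars are exact 95% confidence intervals for counting error. Members stand above all genes in each list, and WAT H3K9me3 of SCD-fed mice is the lowest list for both, at 15.6% and 7.17%.

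The promoter peaks of the members also scored high within their lists. The median of the best score per member with a peak for BAT H3K9me2 was 132 with SCD (103 for all genes with a peak) and 116 with HFD (88.3). For BAT H3K9me3 it was 335 (213) with SCD and 362 (250) with HFD. In WAT the medians were 139 (106) and 123 (105) for H3K9me2 and 77.3 (70.0) and 101 (83.3) for H3K9me3. The median member peak lay at the percentile 61.5 to 88.1 of the scores of its own list, lowest in WAT H3K9me3 of SCD-fed mice and highest in BAT H3K9me3 of HFD-fed mice. These percentiles set the best promoter peak of a member among all peaks of 50 or more, at promoters or not. They were not computed for all genes, so they are no comparison with other promoters. At the limit of 50, Kcnk5, a leak channel of epithelia, stood just inside at 50.4 in BAT H3K9me2 of HFD-fed mice, and the H3K9me3 peak of Kcnd3, an A-type channel, in WAT of SCD-fed mice stood just outside at 49.8.

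A core of 12 members (13.3%, against 3.86% of all genes) had a promoter peak in all 8 lists. They were Kcnc2, Kcnc4, Kcnh2, Kcnh5 and Kcnh7 of the voltage-gated class, the silent subunits Kcns3 and Kcnv1, the inward rectifier Kcnj12, the leak channels Kcnk2 and Kcnk6, the Ca2+-activated channel Kcnn2, and Kcnip4, an auxiliary protein of A-type channels. A further 24 members had a peak in 7 lists, so that 36 of 90 members (40.0%, against 18.9% of all genes) were in 7 or 8 lists. In no list a peak was seen for 9 members (10.0%, against 30.3% of all genes), which were Kcna10, Kcne2, Kcne3, Kcnj1, Kcnj5, Kcnj13, Kcnj16, Kcnma1 and Kcnrg. Several of these are known from epithelia, such as Kcnj1 of the kidney tubule and Kcnj13, and Kcnj5 is known from the atria and the adrenal cortex. At a score of at least 80, which all lists share as a stricter limit, 4 members had a peak in every list and 20 in none. These counts are given without the share of all genes at that limit, so they are no comparison with other genes.

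**Figure D2:**
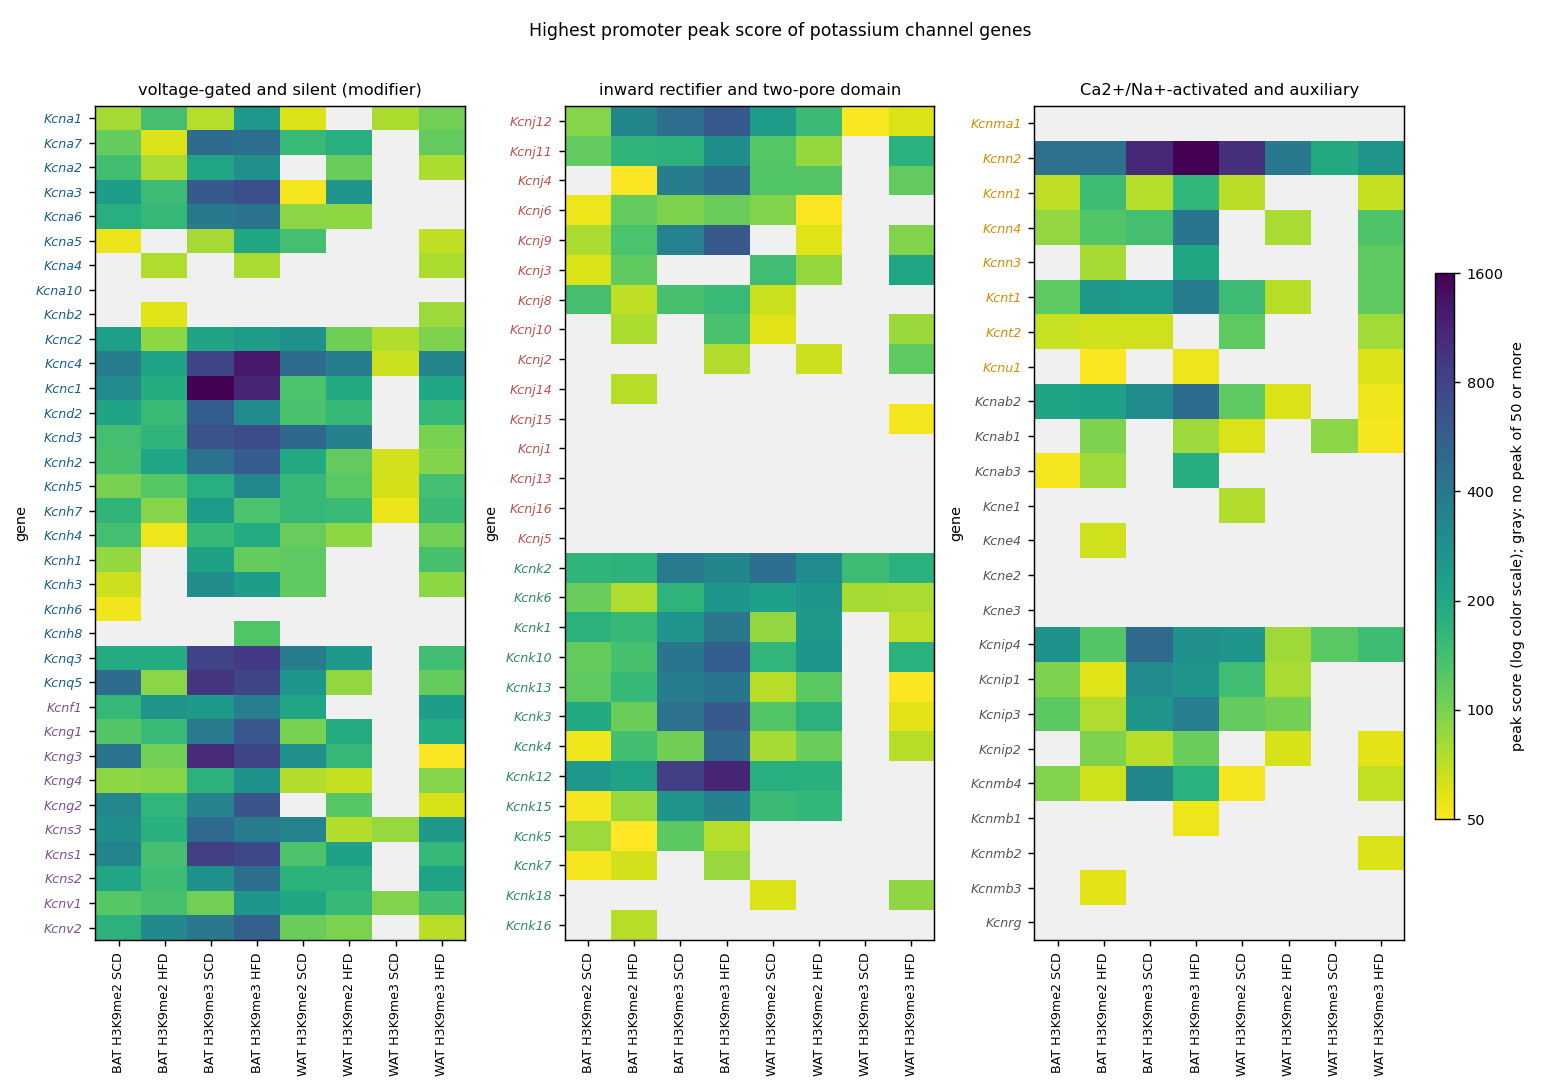
Highest promoter peak score of members by gene (rows, grouped by channel class) in the 8 lists (columns), on a logarithmic color scale from 50 to 1600, with gray where no peak of 50 or more was listed. Rows filled across all 8 columns are the 12 members named above, and the column of WAT H3K9me3 of SCD-fed mice is gray for most members.

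Among the 28 voltage-gated pore genes, 24 and 22 had a BAT H3K9me2 peak with SCD and HFD, 23 and 25 a BAT H3K9me3 peak, 22 and 18 a WAT H3K9me2 peak, and 6 and 22 a WAT H3K9me3 peak. Kcnc channels let neurons fire at high rates. The scores of Kcnc4 were 370.2 and 216 (BAT H3K9me2), 779.7 and 1271 (BAT H3K9me3), 472 and 368 (WAT H3K9me2) and 66.3 and 329.6 (WAT H3K9me3), the SCD value first in each pair. They were highest in BAT H3K9me3 of HFD-fed mice and lowest in WAT H3K9me3 of SCD-fed mice, where the peak (chr3:107262313-107263494) lay upstream of the start and not over it. Those of Kcnc1 were 303 and 186 (BAT H3K9me2), 1578 and 1098 (BAT H3K9me3), 134 and 193 (WAT H3K9me2) and no peak and 205 (WAT H3K9me3). The SCD value of BAT H3K9me3 was the second highest score of any member in any list, and no WAT H3K9me3 peak of 50 or more was listed for SCD.

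Kcnc2 had less extreme scores. They were 225 and 90.1 (BAT H3K9me2), 211 and 239 (BAT H3K9me3), 275 and 106 (WAT H3K9me2) and 74.9 and 97.9 (WAT H3K9me3), so that this gene, unlike Kcnc1, had a peak in each list. The 2 Kcnd genes, which carry the transient A-type current of heart and neurons, had a peak in 7 lists each and lacked one in WAT H3K9me3 of SCD-fed mice. Scores of Kcnd3 were 141 and 166 (BAT H3K9me2), 658 and 724 (BAT H3K9me3), 505 and 355 (WAT H3K9me2) and no peak and 101 (WAT H3K9me3).

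The Kcnh genes, of the ether-a-go-go family, were spread widely, from 1 to 8 lists. Kcnh2, the channel of cardiac repolarization, scored 136 and 207 (BAT H3K9me2), 437 and 585 (BAT H3K9me3), 196 and 116 (WAT H3K9me2) and 63.7 and 94.9 (WAT H3K9me3). A peak was present in each list, but in all 4 pairs the best peaks of the diets lay apart, near different starts of the gene or at different distances from a start, so the paired scores are not of the same region. In BAT H3K9me2, for example, the best peak was at chr5:23852931-23854893 with SCD and at chr5:23829797-23831836 with HFD. Kcnh5, shown above, had 100.2 and 124 (BAT H3K9me2), 181 and 321 (BAT H3K9me3), 159.7 and 122 (WAT H3K9me2) and 62.9 and 141 (WAT H3K9me3). Kcnh7 had 165 and 94.1 (BAT H3K9me2), 238 and 133 (BAT H3K9me3), 159 and 152 (WAT H3K9me2) and 55.6 and 151 (WAT H3K9me3). In contrast Kcnh6 had a peak in BAT H3K9me2 of SCD-fed mice only, at 54.2, and Kcnh8, by annotated starts, in BAT H3K9me3 of HFD-fed mice only, at 129. The Kcnh8 peak (chr17:53123273-53124563) was assigned through an annotated start at 53121602, the downstream end of the gene as annotated, and lay past it. At its RefSeq start, Kcnh8 had a BAT H3K9me3 peak with SCD as well, at 71.8. By annotated starts, 7 of 8 Kcnh genes had a BAT H3K9me2 peak with SCD and 4 with HFD. The shares of all genes in these lists were 44.3% and 47.6%. Kcnh8 was not among the 4, but had a BAT H3K9me2 peak with HFD at its RefSeq start, at 54.5. Some scores behind these counts were also near the limit, as for Kcnh6 with SCD (54.2) and Kcnh4 with HFD (54.2).

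Kcnq3 and Kcnq5, subunits of the neuronal M-current, had peaks in both BAT marks under both diets. Kcnq5 had the highest BAT H3K9me2 score of any member with SCD, and its values were 471 and 91.6 (BAT H3K9me2), 944 and 778 (BAT H3K9me3), 260.4 and 87.3 (WAT H3K9me2) and no peak and 113 (WAT H3K9me3). The SCD score was above the HFD score in each pair with both values. Of the 8 Kcna genes, related to the Shaker channel of flies, 7 had a peak in at least 3 lists and Kcna10 in none. Kcna3, the channel of T lymphocytes, had 229 and 148 (BAT H3K9me2), 596 and 689.5 (BAT H3K9me3), 52.5 and 268 (WAT H3K9me2) and no peak in either diet (WAT H3K9me3), and its peaks also lay within 3 kb of the start of the neighbouring gene AI504432. Kcnb2, a delayed rectifier, had a peak in BAT H3K9me2 and WAT H3K9me3 of HFD-fed mice only, at 59.2 and 83.2. Both were assigned through an annotated start at chr1:15702384, near the downstream end of the gene (15302533 to 15706448), and none lay at its first start.

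The 10 silent modifier genes (Kcnf, Kcng, Kcns and Kcnv), whose subunits form no channel alone and alter Kcnb channels, were the class with the fullest coverage. All 10 had a peak in each of the 4 BAT lists, 9 had one in each WAT H3K9me2 list, and 2 and 10 had one in WAT H3K9me3 with SCD and HFD. No other class had all of its members in any list. Kcns3 had 283 and 176 (BAT H3K9me2), 488 and 386 (BAT H3K9me3), 338 and 74.3 (WAT H3K9me2) and 85.9 and 249.6 (WAT H3K9me3). Kcnv1 had 123 and 136 (BAT H3K9me2), 105 and 261 (BAT H3K9me3), 203 and 157 (WAT H3K9me2) and 96.0 and 142 (WAT H3K9me3). Both had peaks in every list, lowest for WAT H3K9me3 with SCD in Kcnv1 and for WAT H3K9me2 with HFD in Kcns3. Kcng3 had 423 and 104 (BAT H3K9me2), 1061 and 778 (BAT H3K9me3), 279.5 and 159 (WAT H3K9me2) and no peak and 51.1 (WAT H3K9me3), high with both diets in BAT H3K9me3 and close to the limit of 50 in WAT H3K9me3 of HFD-fed mice. In Kcng4, Kcns1 and Kcnv2 the best peak mostly lay in the gene body, its midpoint 889 to 1002 bp downstream of the start in Kcnv2, 2743 to 3042 bp in Kcns1 and 2064 to 2325 bp in 6 of the 7 lists in Kcng4.

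Inward rectifiers had a median of 4 lists per gene, against 7.0 for the silent modifiers and 2.0 for the auxiliary genes described below. Of the 15 Kcnj genes, 6 and 9 had a BAT H3K9me2 peak with SCD and HFD, 6 and 8 a BAT H3K9me3 peak, 7 and 7 a WAT H3K9me2 peak, and 1 and 8 a WAT H3K9me3 peak. Their share was below that of all genes in 4 lists, as in BAT H3K9me3 with SCD (40.0% against 53.4%) and HFD (53.3% against 60.7%). It was above in the other 4, as with HFD in BAT H3K9me2 (9 of 15 against 47.6%) and WAT H3K9me3 (53.3% against 37.3%). Kcnj12, a rectifier of heart and skeletal muscle, was the member of this class with a peak in each list, at 94.0 and 326 (BAT H3K9me2), 455 and 598 (BAT H3K9me3), 235 and 151 (WAT H3K9me2) and 52.1 and 61.0 (WAT H3K9me3). The best peak was near its first start in 6 lists, and near the second in BAT H3K9me2 with HFD (chr11:60881700-60884249) and WAT H3K9me3 with SCD (chr11:60881800-60882850), so these pairs set different regions side by side. Kcnj11 and Kcnj8 encode the pores of ATP-sensitive channels, which couple metabolism to membrane voltage. Kcnj11, of beta cells and muscle, had 115 and 166 (BAT H3K9me2), 172 and 286 (BAT H3K9me3), 125 and 86.4 (WAT H3K9me2) and no peak and 174 (WAT H3K9me3), where the best peaks of the diets did not overlap in either BAT pair. Kcnj8, of vascular smooth muscle, had 139.8 and 70.0 (BAT H3K9me2), 137 and 155 (BAT H3K9me3), 65.8 and no peak (WAT H3K9me2) and no peak in either diet (WAT H3K9me3). Both had BAT peaks of both marks under both diets, and in WAT of HFD-fed mice Kcnj11 had a peak of each mark and Kcnj8 of neither.

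Kcnj2, another rectifier of muscle that has been studied in macrophages and vessels, had peaks with HFD only, at 74.7 for H3K9me3 in BAT and at 65.3 and 117 for H3K9me2 and H3K9me3 in WAT. Kcnj3, a G protein-gated rectifier of heart and brain, had 61.2 and 116 (BAT H3K9me2), no peak in either diet (BAT H3K9me3), 145 and 86.5 (WAT H3K9me2) and no peak and 209.9 (WAT H3K9me3), highest in WAT H3K9me3 with HFD. Kcnj16, which forms channels with Kcnj10, had none in any list, and neither had Kcnj1, Kcnj5 or Kcnj13.

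The 13 two-pore domain genes (Kcnk) had peaks in 11 and 12 members for BAT H3K9me2 with SCD and HFD, 10 and 11 for BAT H3K9me3, and in WAT 10 and 9 for H3K9me2 and 2 and 8 for H3K9me3. Kcnk2, a channel opened by membrane stretch and lipids, had 166 and 169.6 (BAT H3K9me2), 391 and 327 (BAT H3K9me3), 453 and 296 (WAT H3K9me2) and 149 and 176 (WAT H3K9me3). Its peaks covered the annotated start in all 8 lists (chr1:191167235-191168250 in BAT H3K9me2 of HFD-fed mice), and it was 1 of 2 leak channels with a WAT H3K9me3 peak under SCD. The other was Kcnk6, a channel studied in vessels and immune cells, with 111 and 75.7 (BAT H3K9me2), 168 and 261 (BAT H3K9me3), 225 and 258 (WAT H3K9me2) and 78.6 and 77.9 (WAT H3K9me3). Within their own lists its WAT peaks with SCD and HFD stood at the percentiles 88.8 and 95.6 (H3K9me2) and 63.0 and 52.6 (H3K9me3).

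Kcnk3, the leak channel known from brown adipocytes, had 191 and 109.5 (BAT H3K9me2), 435 and 605 (BAT H3K9me3), 129 and 173 (WAT H3K9me2) and no peak and 58.0 (WAT H3K9me3). In WAT H3K9me3 of SCD-fed mice a peak of Kcnk3 was listed below the limit, at 36.9. The HFD score was higher for BAT H3K9me3 and WAT H3K9me2 and lower for BAT H3K9me2. Kcnk12, which gives little current by itself, had 253 and 218 (BAT H3K9me2), 830.1 and 1119.9 (BAT H3K9me3), 179 and 177 (WAT H3K9me2) and no peak in either diet (WAT H3K9me3), with the highest BAT H3K9me3 scores of this class in both diets. Kcnk16, a channel of the pancreas, had a peak in BAT H3K9me2 of HFD-fed mice alone, at 72.8.

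Of the 8 genes of Ca2+- and Na+-activated channels, 5 and 7 had a BAT H3K9me2 peak with SCD and HFD, 5 and 6 a BAT H3K9me3 peak, 4 and 3 a WAT H3K9me2 peak, and 1 and 7 a WAT H3K9me3 peak. Kcnn2, a small-conductance Ca2+-activated channel of neurons and heart, had the highest score of all members in 5 lists and the second highest in the other 3. Its values were 439.6 and 434 (BAT H3K9me2), 1086 and 1583 (BAT H3K9me3), 1006 and 396 (WAT H3K9me2) and 196 and 264 (WAT H3K9me3). For BAT H3K9me2 the scores, which are not scaled between lists, were nearly equal. For BAT H3K9me3 the HFD score was higher, and for WAT H3K9me2 the SCD score was above the HFD score. Kcnn4, of lymphocytes, macrophages and red cells, had 88.0 and 128 (BAT H3K9me2), 139 and 415 (BAT H3K9me3), no peak and 77.5 (WAT H3K9me2) and no peak and 130.1 (WAT H3K9me3), with HFD above SCD in both BAT pairs. Kcnt1, a Na+-activated channel of neurons, had 118 and 249 (BAT H3K9me2), 239 and 371 (BAT H3K9me3), 149 and 72.3 (WAT H3K9me2) and no peak and 116 (WAT H3K9me3), and its best peaks of the diets lay apart for BAT H3K9me3 and WAT H3K9me2. Kcnu1, a channel of sperm, had a peak in 3 HFD lists only, at 50.7, 54.8 and 60.5, all close to 50. All 3 were assigned through an annotated start at chr8:27022152, inside the gene (26960095 to 27048405), and none lay at its first start.

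Auxiliary genes (Kcnab, Kcne, Kcnip, Kcnmb and the assembly inhibitor Kcnrg, 16 in all) had peaks in 6 and 10 members for BAT H3K9me2 with SCD and HFD, 6 and 9 for BAT H3K9me3, and in WAT 7 and 5 for H3K9me2 and 2 and 6 for H3K9me3. In this order their BAT shares were 37.5%, 62.5%, 37.5% and 56.2%, against 44.3%, 47.6%, 53.4% and 60.7% of all genes. The WAT shares were 43.8%, 31.2%, 12.5% and 37.5%, against 43.6%, 40.6%, 7.17% and 37.3%. Of the 4 Kcne genes, small membrane proteins that slow or speed channel gating, Kcne1 had a peak in WAT H3K9me2 of SCD-fed mice (74.1) and Kcne4 in BAT H3K9me2 of HFD-fed mice (64.4), and no other Kcne peak was listed. The 4 Kcnip genes, Ca2+-binding partners of Kcnd channels, were each found in at least 5 lists. Kcnip4 had 271 and 127 (BAT H3K9me2), 482 and 276 (BAT H3K9me3), 260.0 and 82.2 (WAT H3K9me2) and 121 and 147 (WAT H3K9me3), higher with SCD than with HFD in 3 of the 4 pairs. Kcnab2, a cytoplasmic beta subunit of Kcna channels, had 211 and 219.8 (BAT H3K9me2), 300.5 and 471 (BAT H3K9me3), 117 and 60.8 (WAT H3K9me2) and no peak and 54.8 (WAT H3K9me3), and its peaks also lay at the start of the neighbour Nphp4. Kcnmb4, the neuronal beta subunit of the Kcnma1 channel, had 97.0 and 64.5 (BAT H3K9me2), 327 and 174 (BAT H3K9me3), 52.5 and no peak (WAT H3K9me2) and no peak and 68.8 (WAT H3K9me3), while Kcnmb1, Kcnmb2 and Kcnmb3 had a peak in 1 list each.

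**Figure D3:**
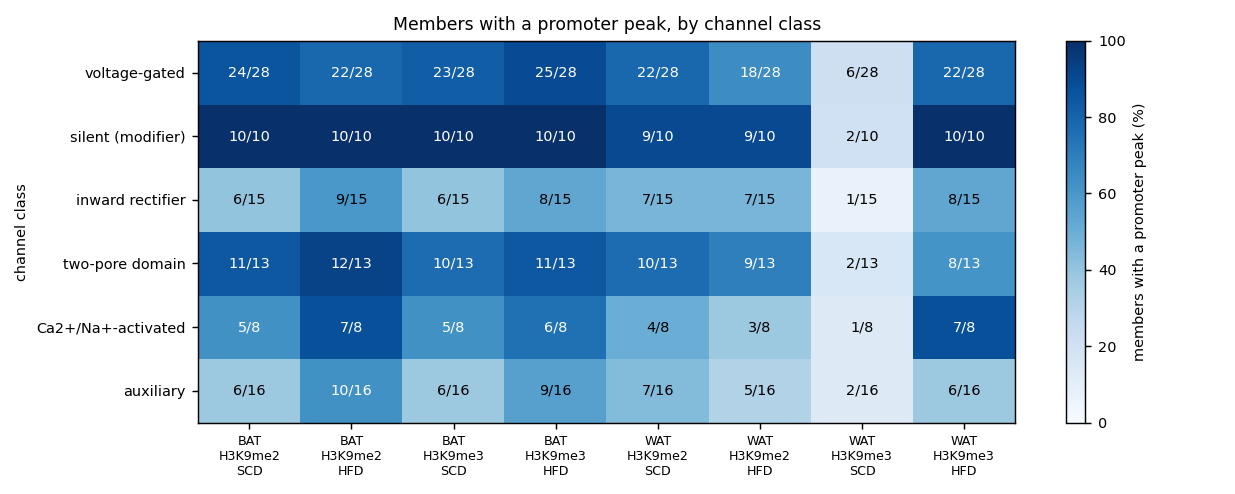
Members with a promoter peak of all members in each channel class (rows) and list (columns), with the share in percent as the color. The silent modifiers are at 10 of 10 in 5 lists, and inward rectifiers and auxiliary genes have the lowest shares of the classes in every BAT list. This is an order of the classes and no comparison with all genes.

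Genes outside the set that encode partners of these channels were also counted. Of 9 such genes, 8, 7, 8 and 8 had a peak in the BAT lists (H3K9me2 with SCD and HFD, then H3K9me3) and 7, 5, 3 and 5 in the WAT lists in the same order. Dpp6 and Dpp10, membrane partners of Kcnd channels, were in all 8 lists, as was Lrrc38, a gamma subunit of the Kcnma1 channel. Scores of Dpp10 were 229.8 and 249 (BAT H3K9me2), 321 and 603 (BAT H3K9me3), 387 and 175 (WAT H3K9me2) and 68.3 and 306 (WAT H3K9me3). For the sulfonylurea receptors of ATP-sensitive channels, Abcc8, which pairs with Kcnj11, had 139.9 and 149 (BAT H3K9me2), 241 and 403 (BAT H3K9me3), 152 and 86.9 (WAT H3K9me2) and no peak and 98.3 (WAT H3K9me3), and Abcc9, which pairs with Kcnj8, had 73.9 and no peak (BAT H3K9me2), 67.5 and 82.2 (BAT H3K9me3), 58.8 and no peak (WAT H3K9me2) and no peak in either diet (WAT H3K9me3). Abcc8 thus had a peak in the same 7 lists as Kcnj11. Abcc9 shared with Kcnj8 both BAT H3K9me3 peaks and the SCD peaks of H3K9me2 in BAT and WAT. A peak in 7 lists was common, as 24 of the 90 members had one. Whether these partners share lists more often than other genes was not tested, and their distance on the chromosome was not examined. Lrrc52, a gamma subunit of testis, had none.

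Between the diets, the members in BAT H3K9me2 were mostly the same: 58 had a peak with both, and in 56 of these at least 1 peak of each diet overlapped. The best peaks overlapped in 50 of the 58. A peak with SCD only was seen for 4 members (4.44%, against 11.0% of all genes) and with HFD only for 12 (13.3%, against 14.4%). The 4 were voltage-gated, Kcnh1 at 87.0, Kcnh3 at 65.4, Kcna5 at 55.2 and Kcnh6 at 54.2. The 12 with HFD only were Kcna4, Kcnab1, Kcnb2, Kcne4, Kcnip2, Kcnj4, Kcnj10, Kcnj14, Kcnk16, Kcnmb3, Kcnn3 and Kcnu1, with scores from 50.7 to 98.4. Among the members with both, the HFD score was the higher in 25 (43.1%, against 40.3% of all genes with both), and among the 50 with overlapping best peaks in 19 (38.0%, against 36.7%). The order of the diets turned when the lists were cut to equal numbers of peaks, where 12 members had SCD only (19.0% of all genes) and 7 HFD only (7.87%), and at a score of at least 80, where 11 had SCD only (13.3%) and 10 HFD only (11.3%).

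In BAT H3K9me3, 59 members had a peak with both diets, overlapping in all 59, and in 56 the best peaks overlapped. SCD only was seen for Kcnt2, a Na+-activated channel, at 64.1 (1 member, 1.11%, against 1.84% of all genes). HFD only was seen for 10 (11.1%, against 9.14%): Kcna4, Kcnab1, Kcnab3, Kcnh8, Kcnj2, Kcnj10, Kcnk7, Kcnmb1, Kcnn3 and Kcnu1. Kcnn3, a small-conductance Ca2+-activated channel, scored highest of these at 201, followed by Kcnab3, a beta subunit, at 185, whose peak also lay at Cntrob and Trappc1. Kcnh8 was among the 10 through an annotated start at the end of the gene, and had an SCD peak (71.8) at its RefSeq start. The HFD score was the higher in 41 members with both (69.5%), the same share as over all genes (69.5%), and in 38 of the 56 (67.9%, against 69.0%). With equal numbers of peaks, HFD only fell to 4 members (3.83% of all genes) and SCD only was 2 (5.91%).

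In WAT H3K9me2, 45 members had overlapping peaks with both diets, 14 had SCD only (15.6%, against 10.3% of all genes) and 6 HFD only (6.67%, against 7.32%). Of the 14, Kcnf1, a silent subunit, had the highest score at 208, and among the next were Kcna5, a channel of atria and vessels, at 139 and Kcnh1 at 119. Among the others were Kcna1, Kcnab1, Kcne1, Kcnh3, Kcnj8, Kcnj10, Kcnk18, Kcnmb4, Kcnn1 and Kcnt2. Kcnn1 was among the 14 by its annotated start, and had an HFD peak (103) at a RefSeq start 6250 bp away. The 6 with HFD only were Kcng2 at 123, Kcna2 at 110.3, Kcnn4 at 77.5, Kcnj2 at 65.3, Kcnip2 at 62.1 and Kcnj9 at 58.9. The SCD list of WAT goes down to a score of 30, and all of these except Kcnj2 had a peak between 42.1 and 49.0 in it. In the lists as deposited the count with HFD only was therefore 1 (2.65% of all genes). Members with both diets had the higher score with HFD in 15 of 45 (33.3%, against 46.4% of all genes), and those whose best peaks overlapped in 15 of 42 (35.7%, against 46.7%).

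Of the 4 pairs of lists, the diets differed most in WAT H3K9me3, where 14 members had a peak with both, overlapping in 12, 0 with SCD only (against 1.72% of all genes) and 47 with HFD only (52.2%, against 31.8%). Of the 61 members with an HFD peak 77.0% thus had none with SCD, against 85.4% of such genes overall. Among the highest HFD-only scores were those of Kcnf1 at 229, the silent subunit Kcns2 at 216 and Kcnj3 at 209.9. By class they were 16 of 28 voltage-gated, 8 of 10 silent, 7 of 15 inward rectifier, 6 of 13 two-pore domain, 6 of 8 Ca2+- or Na+-activated and 4 of 16 auxiliary genes. For 15 of the 47 the SCD list held a peak below 50, such as Kcnd3 at 49.8, Kcnn3 at 48.3 and Kcnj4 at 47.1, and for 32 it held none. With equal numbers of peaks, 21 members had HFD only (9.32% of all genes) and 5 SCD only (3.97%).

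**Figure D4:**
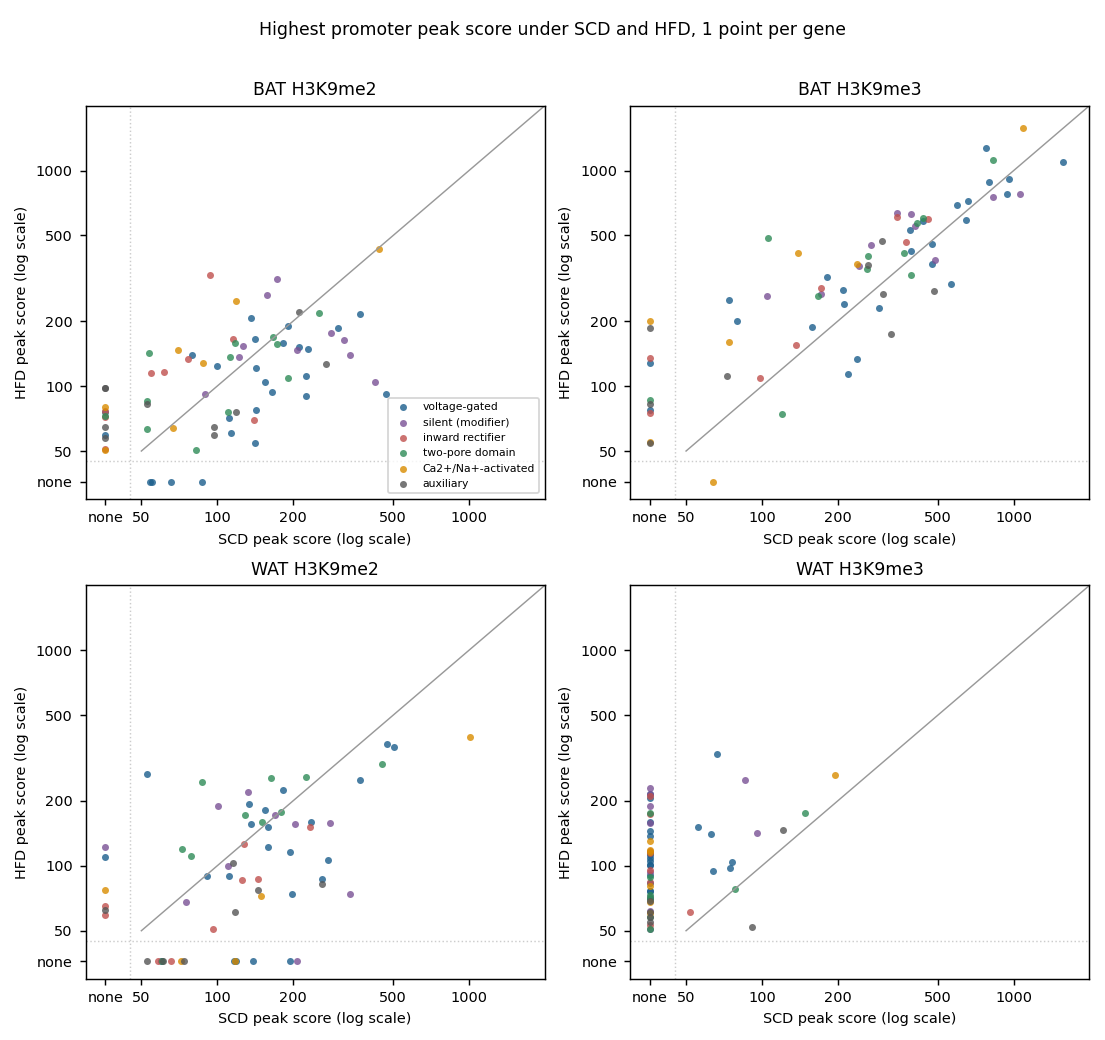
Highest promoter peak score of each member with SCD (horizontal) and HFD (vertical), on logarithmic axes, for each tissue and mark, where each point is 1 gene colored by channel class, the line marks equal scores, and points beyond the dotted lines had no peak of 50 or more in that diet. In WAT H3K9me3, 47 points lie on the left edge (no SCD peak) and 0 on the lower edge, whereas in WAT H3K9me2 14 lie on the lower edge and 6 on the left.

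Several members had opposite diet patterns between marks or tissues. In WAT, 10 members (11.1%, against 3.83% of all genes) had an H3K9me2 peak with SCD only and an H3K9me3 peak with HFD only, among them Kcna5, Kcnf1, Kcnh1, Kcnh3, Kcnj10, Kcnk18, Kcnmb4, Kcnn1 and Kcnt2, and no member had the reverse (0.0940% of all genes did), since none had an H3K9me3 peak with SCD only. In 3 of the 10, Kcnf1, Kcnmb4 and Kcnt2, the SCD list of H3K9me3 held a peak below 50, at 37.8, 30.1 and 43.9. Kcnn1 was among the 10 by its annotated start, and had a WAT H3K9me2 peak with HFD (103) at a RefSeq start. For Kcnf1 the scores were 208 and 229, and its peaks in the 4 BAT lists were 158, 266, 244 and 362. Between tissues, Kcnab1 and Kcnj10 (2.22% of members, against 2.52% of all genes) had an H3K9me2 peak with HFD only in BAT and with SCD only in WAT, at 98.2 and 61.1 for Kcnab1 and at 77.0 and 58.2 for Kcnj10. In Kcnj10 the BAT peak was centred 1588 bp downstream of the start and the WAT peak over the stretch printed above. The scores of Kcnab1 and Kcnj10 in these lists were all below 100.

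Between the tissues, the members with an H3K9me2 peak under SCD were largely shared: 54 in both, 8 in BAT only (8.89%, against 9.60% of all genes) and 5 in WAT only (5.56%, against 8.90%). Under HFD 50 were shared, 20 were in BAT only (22.2%, against 17.4%) and 1 in WAT only, Kcnj2 (1.11%, against 10.4%). For H3K9me3 under SCD 13 were shared, 47 were in BAT only (52.2%, against 47.6%) and 1 in WAT only, Kcnab1 (1.11%, against 1.34%). Under HFD 55 were shared, 14 were in BAT only (15.6%, against 26.2%) and 6 in WAT only (6.67%, against 2.81%), which were Kcnb2, Kcnj3, Kcnj15, Kcnk18, Kcnmb2 and Kcnt2. The share of members in BAT only was thus close to that of all genes in the SCD lists.

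Between the marks, most members with H3K9me2 in BAT also had H3K9me3. Under SCD 58 had both, 4 H3K9me2 only (4.44%, against 3.02% of all genes) and 2 H3K9me3 only (2.22%, against 12.1%), and under HFD 63 had both, 7 H3K9me2 only (7.78%, against 4.92%) and 6 H3K9me3 only (6.67%, against 18.0%). H3K9me3 without H3K9me2 was therefore a smaller share in the members than over all genes in both diets. In WAT of SCD-fed mice 14 had both, 45 H3K9me2 only (against 37.6%) and 0 H3K9me3 only (against 1.13%). With HFD 43 had both, 8 H3K9me2 only (8.89%, against 13.4%) and 18 H3K9me3 only (20.0%, against 10.1%). The lists of a tissue differ in size and share their chromatin source, and what these counts owe to that was not tested.

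Most peaks of the members lay over a start. The best peak covered an annotated start in 70.0% to 87.1% of the members with a peak, by list, and its median width was 902 to 1521 bp. A peak that also lay within 3 kb of another protein-coding start was the best peak of 0 to 5 members per list, so that neighbours shared few of the calls. Under the best peaks the median GC content was 61.9% to 67.0% and the median CpG density 59.1 to 83.7 per kb.

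CpG content of the promoter rose with the number of lists. In the 300 bases from 250 before to 50 after the first annotated start, the 9 members without a peak had a median of 3.0 CpG, the 18 members in 1 to 3 lists 7.0, the 27 in 4 to 6 lists 16.0 and the 36 in 7 or 8 lists 17.0. Over all genes the medians were 3.0, 11.0, 21.0 and 22.0, so that members with many peaks had fewer CpG than other genes with as many. Split by CpG content, members stood above all genes in each stratum of each list. With 0 to 4 CpG (17 members) the shares were 35.3% against 13.9% for BAT H3K9me2 with SCD and 52.9% against 13.7% for WAT H3K9me3 with HFD. With 5 to 14 CpG (30 members) they were 63.3% against 37.9% and 63.3% against 35.7%. With 15 or more (43 members) they were 86.0% against 68.5% and 76.7% against 54.0%, while in BAT H3K9me3 of SCD-fed mice they were close, at 86.0% against 84.6%. They were also close in WAT H3K9me3 of SCD-fed mice at 0 to 4 CpG, where 1 of 17 members (5.88%) had a peak against 4.84%.

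**Figure D5:**
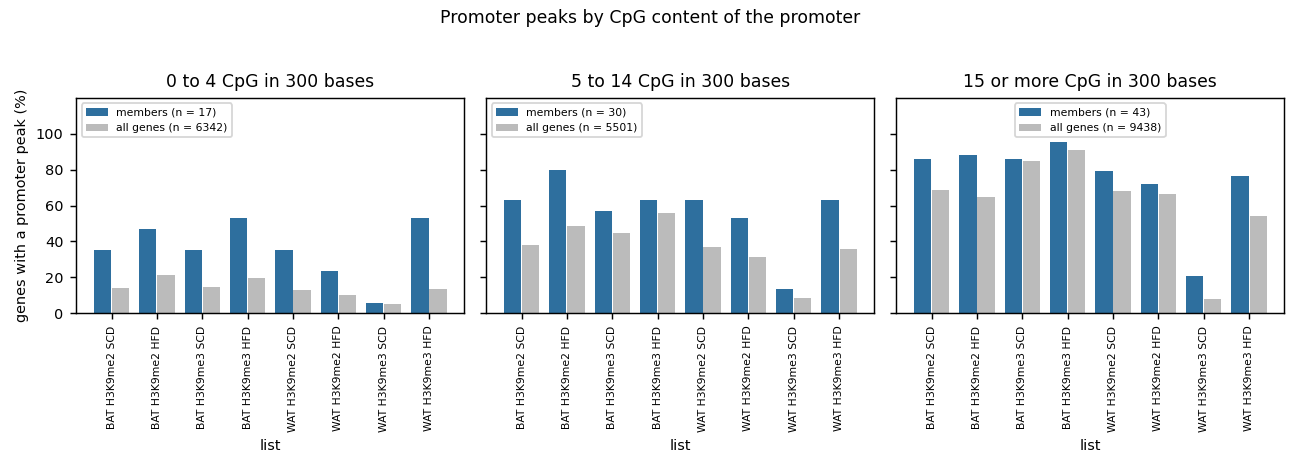
Share of members (blue) and of all protein-coding autosomal genes (gray) with a promoter peak in each list, in percent, for promoters with 0 to 4, 5 to 14 and 15 or more CpG in 300 bases. Members stand above all genes in each of the 24 pairs of bars, and the bars are close for BAT H3K9me3 of SCD-fed mice at 15 or more CpG (86.0% and 84.6%). They are also close for WAT H3K9me3 of SCD-fed mice at 0 to 4 CpG (5.88%, 1 of 17 members, and 4.84%).

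The order of the channel classes by CpG content of these 300 bases at the first start was not their order by peaks. The silent modifiers, with a peak in 10 of 10 members in BAT, had a median of 7.5 CpG, below the 11.0 of the inward rectifiers and the 19.0 of the voltage-gated genes. Several of their best peaks lay outside these bases, as in Kcns1 and Kcng4. Under the best peaks of BAT H3K9me2 with SCD their median CpG density was 70.4 per kb. It was 64.5 for the inward rectifiers and 73.4 for the voltage-gated genes. Of letters searched on both strands of the 300 bases, CCGCCC, the core of a GC box, was found in 46 members (51.1%, against 43.9% of all promoters). The letters TTCAGCACC, part of the element bound by the neuronal gene repressor REST, were found in Kcnh6 and Kcnk3 (2.22%, against 0.395%), and GGACAGCG, another part of it, in Kcnj4 (1.11%, against 1.51%). These are matches of letters and say nothing of binding.

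For Kcnma1 the count of 0 lists rested on the annotated start. RefSeq promoters were at hand for 68 members, and all 93 of them matched mm9 once. In 7 members a RefSeq start lay more than 3 kb from every annotated start, and in Kcnma1 it lay 200901 bp away. Around that start peaks were listed at 303 and 211 for BAT H3K9me2 with SCD and HFD, 1170.5 and 753 for BAT H3K9me3, and 483 and 424 for H3K9me2 in WAT. In WAT H3K9me3 the HFD list had 272 and the SCD list none of 50 or more. With the RefSeq starts Kcnma1 would therefore be in 7 lists, with higher SCD than HFD scores in the 3 pairs with both. Kcnh8 gained 4 lists in this way, at 54.5 to 106, and Kcnn1 gained 1, WAT H3K9me2 with HFD, at 103. This count was made after the values were seen and was not repeated for all genes.

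Other ion channel families were counted in the same way. Of 25 voltage-gated calcium channel genes, 16 and 21 had a BAT H3K9me2 peak with SCD and HFD (64.0% and 84.0%) and 4 and 20 a WAT H3K9me3 peak. The shares of the potassium channels in these lists were 68.9% and 77.8%, then 15.6% and 67.8%. In BAT H3K9me3 the calcium channels had 84.0% and 92.0%, against 66.7% and 76.7% of the potassium channels. In WAT H3K9me2 they had 68.0% and 64.0%, against 65.6% and 56.7%. Of 12 voltage-gated sodium channel genes the numbers were 5 and 7 (41.7% and 58.3%) and 3 and 6. The 4 HCN genes, pacemaker channels of heart and brain, all had a peak in each of 6 lists. Of 25 TRP genes, cation channels of sensory cells among others, 13 and 17 had a BAT H3K9me2 peak, and of 8 chloride channel genes 5 and 6 did. Differences between these families were not tested.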

How the data were processed

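Peak lists of both marks, tissues and diets were used, 8 lists from 12 ChIP-seq libraries, grouped by the library labels. Per the submitters' processing notes the authors used FastQC, Trim Galore, Bowtie2 2.4.2 and MACS2 on mm9. The deposited score of each peak has no stated unit and was taken as the negative log10 of the p-value multiplied by 10, because 6 lists start at about 50 and both WAT lists of SCD-fed mice at 30. Depth per library is unknown. Peaks with a score of 50 or more were assigned to genes of GENCODE vM1 (NCBIM37, the mm9 assembly) when they overlapped the 3000 bp on either side of any start by at least 1 bp, and 0 peaks lay past a chromosome end. The 90 members include Kcnb2 and Kcnh8, each joined from 2 gene entries. The best score per gene was kept. With 1 library per group no test was made. Members, classes, lists of related genes and the rule for named genes were chosen with earlier results of these data known. The rule named adipose-related members and partners, up to 4 members with the highest scores per diet pattern of each tissue and mark, members in all or no lists, the leading member of each subfamily and members with opposite patterns, and the text prints a part of them, as some results are not reported here. Alternatives were a score of at least 80, the lists as deposited, promoters of 1 kb, 1 start per gene, equal numbers of peaks and the peak midpoint. CpG strata, leaving out peaks shared with another gene, the overlap of best peaks between diets and RefSeq starts (from a table of GRCm38.p6, matched to mm9 by sequence) were added after the values were seen. Python 3.11.15, SciPy 1.17.1, matplotlib 3.10.9 and bedtools 2.31.1 were used, and the assignment was checked on simulated data.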

Additional observations from a re-analysis of the deposited data

Results flagged for a closer look

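The number of members with an H3K9me2 promoter peak was higher by 8 with HFD than with SCD in BAT, and in WAT the difference, HFD minus SCD, was -8. The BAT difference turned when the lists held equal numbers of peaks (57 members with HFD, 62 with SCD) and when peaks under 80 were left out (48 and 49). The difference between the tissues was not tested, with 1 library per group.

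For H3K9me2, Kcnab1, a cytoplasmic beta subunit, had a peak in BAT with HFD only (score 98.2) and in WAT with SCD only (61.1). Kcnj10, the glial inward rectifier, had the same pattern, at 77 in BAT and 58.2 in WAT. For H3K9me3, Kcnt2, a Na+-activated channel, had a peak in BAT with SCD only (64.1) and in WAT with HFD only (80.6). These opposite patterns were not tested either, and Kcnt2 had a further WAT H3K9me3 peak at 43.9 with SCD.

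Peaks below a score of 50, which were not used for the counts, are listed for SCD in WAT alone. Within the SCD WAT list of each mark, 11 members for H3K9me2 and 21 for H3K9me3 had promoter peaks below 50 alone. Members such as Kcnd3 had peaks of 50 or more in other lists.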

How the results depend on the processing

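Over all settings, 114 of the main counts stayed within 1.5 times and 20 moved, and of the counts of single genes and classes 692 stayed and 57 moved. With equal numbers of peaks, BAT H3K9me2 had 12 members with SCD only and 7 with HFD only, BAT H3K9me3 had 2 and 4, WAT H3K9me3 had 5 and 21 with 30 in all for HFD, and 16 members were in no list. At a score of at least 80, SCD only was 11 members for BAT H3K9me2 and 1 for WAT H3K9me3, where 6 members had an SCD peak, 4 members were in all 8 lists and 20 in none. In the lists as deposited, HFD only was 1 for WAT H3K9me2, SCD only was 6 for WAT H3K9me3, where 35 members had an SCD peak, and 20 members were in all 8 lists. With 1 start per gene, SCD only was 1 for WAT H3K9me3 and 14 members were in no list, and with promoters of 1 kb 15 were. The counts of members in all or no lists under these settings stand without the share of all genes and are no comparison with it. No cause was tested. No paired analysis was possible because each group has 1 library. The absence of a peak means that none was called at the depth of that library, which is unknown, so a diet difference cannot be told apart from a difference in depth or in immunoprecipitation between 2 libraries. A score says nothing of the number of cells with a mark.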
